A study of Mus musculus with 8 samples.

Results

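The muscle-wasting programme measured here comprised 10 genes: the ubiquitin ligases Fbxo32, Trim63 and Fbxo30, the transcription factors Foxo1, Foxo3 and Klf15, the growth regulators Mstn and Eif4ebp1, and the ubiquitin-binding proteins Zfand5 and Sqstm1. They were chosen by name, as the probe sets of a Mouse Gene 1.0 ST array whose platform annotation gives that gene as its single symbol, and each of the 10 had 1 such probe set among the 19938 genes named on the array. None of the values was used to choose them, but results of these data were known when the list was drawn up. All 10 passed the filter on low values in muscle (2 or more of the 4 muscle arrays reaching the 40th percentile of that array), and 8 did so in the cerebellum, where Trim63 and Mstn were below it on all 4 arrays.

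Skeletal muscle shrinks when protein breakdown outruns synthesis. FoxO transcription factors, held in the cytoplasm when insulin or IGF1 signalling activates the kinase Akt, enter the nucleus when that signal falls, and switch on genes for ubiquitin ligases and autophagy. Fbxo32 (atrogin-1) and Trim63 (MuRF1) mark proteins of the fibre for the proteasome and are the usual transcriptional markers of wasting in denervated, fasted or glucocorticoid-treated rodent muscle.

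The 8 arrays came from mice aged 3 months, in 4 groups of 2: SCA17 KI muscle (replicates 94 and 97), WT muscle (95 and 96), SCA17 KI cerebellum (94 and 97) and WT cerebellum (95 and 96). KI denotes a knock-in model of spinocerebellar ataxia 17, a disease in which the transcription factor TBP, which binds the TATA box, carries a lengthened polyglutamine stretch; WT mice are the controls, and the muscle is the tibialis anterior (TA). The labels give no strain, sex, repeat length or Cre line, and the study text counts 3 mice of each genotype, of which arrays with 2 numbers per genotype were analysed here. Nothing in the labels states that the arrays of a group came from separate animals, so the p values measure the spread between these arrays, which may be partly technical. Values are log2 levels after RMA (background correction, normalisation and summary of each probe set by median polish). The tissue labels matched their markers: 8 of 8 skeletal muscle markers were at least 2-fold higher in muscle, and 6 of 6 markers of cerebellar neurons and 5 of 5 of cerebellar glia were at least 2-fold higher in the cerebellum (limma, adjusted p under 0.05). The filter was passed in the cerebellum by 5 of the 8 muscle markers. In muscle it was passed by 3 of the 6 neuronal and 5 of 5 glial markers. The other muscle and neuronal markers were kept through the tissue where they are high, so their calls only describe the values. Both arrays of each group were closely alike, with Pearson r between 0.977 and 0.989.

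The promoters of Trim63, Mstn and Sqstm1 are shown because they carry the letters of elements named for the factors of this programme or for TBP. They are RefSeq windows of 300 bases (GRCm38.p6), 250 before and 50 after the annotated start, on the strand of the gene. Of the 10 genes 8 had a window. Fbxo32 and Eif4ebp1 had none, so their promoters were not searched. Capitals mark GTAAACA (the core recognised by FoxO factors) and AGAACA (a hexamer bound by the glucocorticoid receptor), each on either strand, and TATAAA on the sense strand. The windows lie at chr4:134314870-134315169 (plus strand, Trim63), chr1:53061390-53061689 (plus strand, Mstn) and chr11:50210771-50211070 (minus strand, Sqstm1).
Trim63: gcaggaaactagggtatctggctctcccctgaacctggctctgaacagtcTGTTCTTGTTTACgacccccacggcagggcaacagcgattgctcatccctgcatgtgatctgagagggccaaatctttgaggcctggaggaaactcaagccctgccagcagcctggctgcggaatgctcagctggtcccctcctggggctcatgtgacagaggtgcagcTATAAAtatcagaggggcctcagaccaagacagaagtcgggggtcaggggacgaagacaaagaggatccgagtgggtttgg
Mstn: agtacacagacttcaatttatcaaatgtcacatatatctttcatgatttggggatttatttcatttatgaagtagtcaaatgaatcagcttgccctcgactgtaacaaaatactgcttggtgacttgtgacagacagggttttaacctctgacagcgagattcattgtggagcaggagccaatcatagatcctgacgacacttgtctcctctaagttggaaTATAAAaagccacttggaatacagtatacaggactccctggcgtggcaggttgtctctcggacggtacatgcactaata
Sqstm1: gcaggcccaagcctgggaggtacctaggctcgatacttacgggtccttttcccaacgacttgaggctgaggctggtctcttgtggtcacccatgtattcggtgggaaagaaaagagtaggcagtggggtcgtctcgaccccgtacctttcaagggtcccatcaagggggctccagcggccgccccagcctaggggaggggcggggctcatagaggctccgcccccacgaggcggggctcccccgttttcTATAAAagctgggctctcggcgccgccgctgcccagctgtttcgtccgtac
In Trim63 the hexamer begins 200 bases before the start and the FoxO core directly follows it, 194 bases before the start, both on the minus strand and without overlap. The FoxO core was in 1 of the 8 windows and in 3.55% of the 27025 promoters of the same length, and the hexamer in 1 of 8 and in 19%. CAAAACA, the insulin-response form of the FoxO site, was in 0 of the 8 windows and in 6.24% of promoters. TATAAA beginning 40 to 20 bases before the start was found in Trim63 (31 bases before) and Mstn (29 bases before) and in 2.22% of promoters, while in Sqstm1 it began 1 base before the annotated start. The E-box CANNTG, a palindrome, was in 6 of the 8 windows and in 72.1% of promoters. These matches describe the letters of the windows and were not tested for binding.

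None of the 10 genes passed in muscle (KI against WT, limma, adjusted p under 0.05 over 13933 genes), where 3.55% of all tested genes did. For the ligases Fbxo32 and Trim63, which rise in wasting muscle, both KI arrays lay below both WT arrays, as they did for Foxo1, Zfand5 and Klf15. For Sqstm1, Foxo3, Fbxo30 and Eif4ebp1 both lay above. With 2 arrays per group such separation is common: over all tested genes, KI lay wholly below WT in 19.9% and wholly above in 30.3%. At an unadjusted p under 0.05 there were 5 of the 10, of which 3 were lower (Fbxo32, Foxo1, Zfand5) and 2 higher (Sqstm1, Foxo3), beside 20.3% of all tested genes, 6.69% lower and 13.6% higher. In these bulk samples, fewer cells of a type and less RNA per cell cannot be told apart.

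Fbxo32, the substrate-binding subunit of an SCF ubiquitin ligase, was at a log2 level of 8.80 and 8.87 in the KI muscle arrays and at 9.28 and 9.25 in the WT arrays. Its groups did not overlap, and the gap between the nearest KI and WT arrays was 0.39. The mean difference was -0.43 ± 0.12 (log2, SE, n = 2 per group; limma adjusted p = 0.0897), a KI level of 0.742 times WT with a 95% interval from 0.615 to 0.895. Among all tested genes this difference stood at percentile 2.73 from the bottom. The interval is not adjusted for the number of genes.

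Trim63, the RING-finger ligase of sarcomeric proteins, was at 8.13 and 8.19 in KI and at 8.36 and 8.42 in WT muscle. Both KI arrays again lay below both WT arrays, by a gap of 0.17. The difference was -0.23 ± 0.13 (log2, SE, n = 2 per group; limma adjusted p = 0.344), and the 95% interval of the KI to WT ratio ran from 0.702 to 1.04.

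Fbxo30 (MUSA1), an F-box protein that BMP signalling keeps low in mouse muscle, was at 7.61 and 7.68 in KI and at 7.55 and 7.45 in WT. Here the KI arrays were the higher ones, by a gap of 0.06. The difference was 0.15 ± 0.11 (log2, SE, n = 2 per group; limma adjusted p = 0.472), and the 95% interval of the KI to WT ratio ran from 0.940 to 1.31. The estimates of the 3 ligases thus differed in sign, but the intervals of Trim63 and Fbxo30 both included a ratio of 1.

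**Figure D1:**
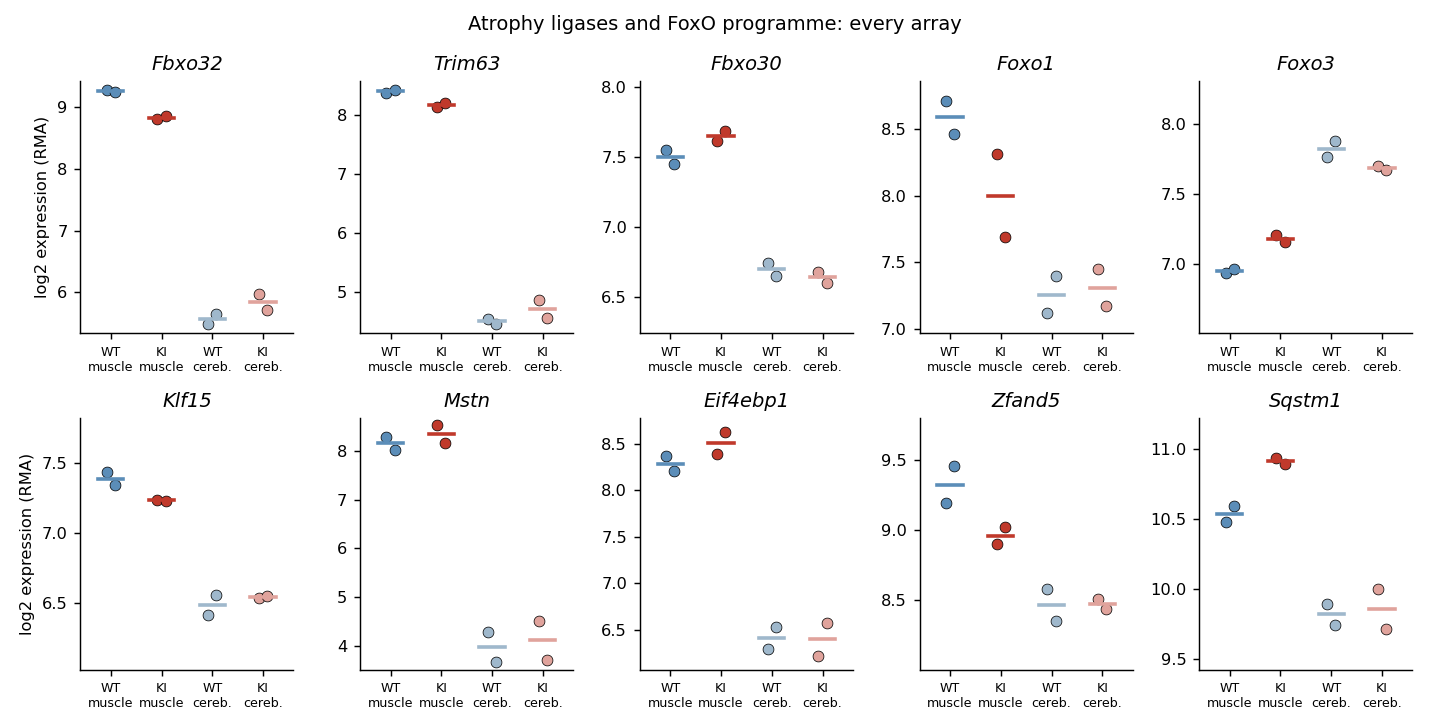
Log2 expression (RMA, vertical axis, scaled for each gene) of the 10 genes in WT and KI muscle and cerebellum; each point is 1 array and each bar the mean of a group of 2. In muscle the KI points lie below the WT points for Fbxo32, Trim63, Foxo1, Klf15 and Zfand5, above them for Fbxo30, Foxo3, Eif4ebp1 and Sqstm1, and overlap them for Mstn.

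The estimates for the FoxO factors had opposite signs, and neither gene passed. Foxo1 was at 8.31 and 7.69 in KI muscle and at 8.71 and 8.47 in WT muscle. The KI arrays lay below the WT arrays but differed from each other by more than the gap of 0.15 between the groups, with KI replicate 97 the lowest of the 4. The difference was -0.59 ± 0.21 (log2, SE, n = 2 per group; limma adjusted p = 0.154), and it was -0.28 without KI replicate 97 and -0.90 without KI replicate 94.

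Foxo3, the family member that drives autophagy and Fbxo32 in mouse muscle, was at 7.20 and 7.16 in KI and at 6.94 and 6.96 in WT. Its 4 arrays formed tight pairs, KI above WT by a gap of 0.19. The difference was 0.23 ± 0.10 (log2, SE, n = 2 per group; limma adjusted p = 0.245). RNA levels do not show how much FoxO protein was in the nucleus.

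Klf15, a glucocorticoid-induced factor that switches on amino acid breakdown and acts with FoxO1 on the atrophy ligases, was at 7.23 on both KI arrays and at 7.43 and 7.34 on the WT arrays. The KI arrays were lower by a gap of 0.11. The difference was -0.16 ± 0.11 (log2, SE, n = 2 per group; limma adjusted p = 0.449).

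Mstn, the secreted inhibitor of muscle mass myostatin, was at 8.54 and 8.16 in KI muscle and at 8.30 and 8.03 in WT. Its groups overlapped, the only member for which they did, and the 95% interval of the KI to WT ratio reached from 0.738 to 1.75 (log2 difference 0.18 ± 0.28, SE, n = 2 per group; limma adjusted p = 0.759). Without KI replicate 94 the difference was -0.0051, so its sign rested on 1 array. The SE and interval pool the spread of all 4 groups. For Mstn the cerebellum arrays, all under the filter, varied more (SD 0.57 in KI, 0.44 in WT) than the muscle arrays (0.27 and 0.19). With the muscle arrays alone the SE was 0.17.

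Eif4ebp1, the repressor of cap-dependent translation that mTORC1 inactivates, was at 8.39 and 8.63 in KI and at 8.37 and 8.20 in WT muscle. The groups were apart by 0.02 only. The difference was 0.22 ± 0.15 (log2, SE, n = 2 per group; limma adjusted p = 0.453), and it ranged from 0.10 to 0.35 with 1 muscle array left out.

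The ubiquitin-binding members lay on opposite sides of 0. Zfand5 (ZNF216), which carries ubiquitinated proteins to the proteasome and is induced in atrophying mouse muscle, was at 8.90 and 9.03 in KI and at 9.20 and 9.46 in WT. The KI arrays lay below, by a gap of 0.17. The difference was -0.36 ± 0.13 (log2, SE, n = 2 per group; limma adjusted p = 0.164), a KI to WT ratio of 0.777 with a 95% interval from 0.633 to 0.953. The log2 difference was -0.23 without WT muscle replicate 96.

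Sqstm1 (p62), the receptor that brings ubiquitinated cargo to autophagosomes and is itself degraded there, was at 10.93 and 10.89 in KI and at 10.48 and 10.59 in WT muscle. The KI arrays lay above by 0.30, the widest gap of the 10 genes after Fbxo32. The difference was 0.38 ± 0.13 (log2, SE, n = 2 per group; limma adjusted p = 0.143), a ratio of 1.30 with a 95% interval from 1.07 to 1.58.

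Of the 10 differences 5 were above 0 and 5 below, where all tested genes gave 55% and 45%, and the median was -0.0034 on the log2 scale, beside 0.03 over all tested genes. KI arrays lay wholly above WT arrays in 4 genes and wholly below in 5, where all tested genes gave 30.3% and 19.9%, or 50.2% without overlap in either direction. The median absolute difference was 0.23 for the 10 genes and 0.15 for all tested genes. Since the list was drawn up with earlier results known, these counts are a description.

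**Figure D2:**
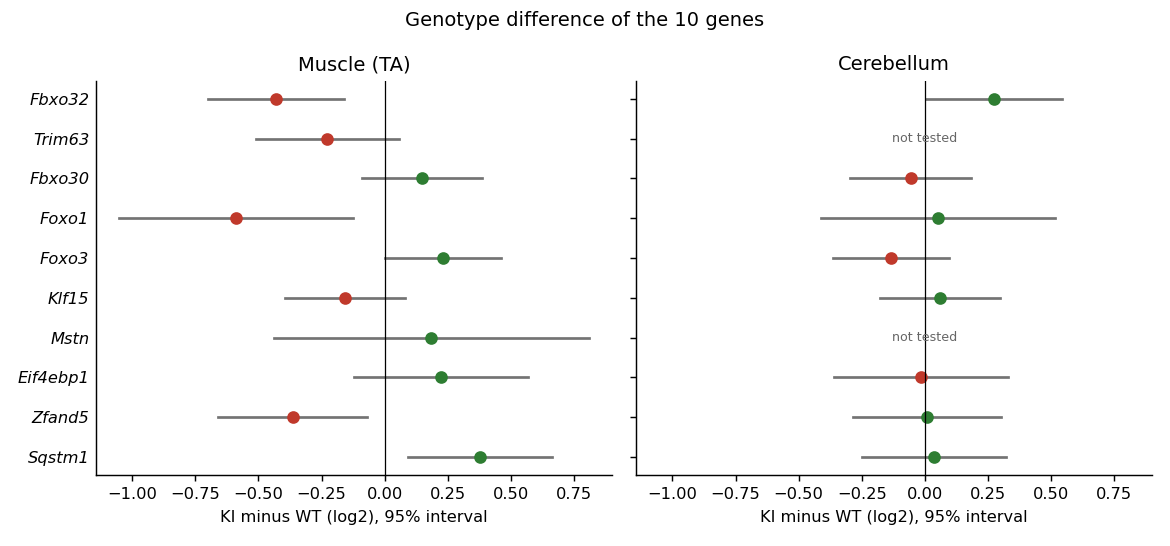
KI minus WT differences on the log2 scale (horizontal axis) for the 10 genes in muscle (left) and cerebellum (right); points are the limma estimates from 2 arrays per group, red below 0 and green above, and lines are 95% intervals not adjusted for the number of genes. In muscle the intervals of Fbxo32, Foxo1 and Zfand5 lie below 0 and those of Foxo3 and Sqstm1 above it; Trim63 and Mstn were not tested in the cerebellum.

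In the cerebellum, the brain region that degenerates in SCA17, 0 of the 8 tested genes passed (limma), beside 0.205% of 13641 genes, and 1 had an unadjusted p under 0.05, beside 5.33% in either direction and 2.27% higher. That gene was Fbxo32, at 5.97 and 5.71 in KI and 5.49 and 5.64 in WT cerebellum. Here the KI arrays lay above the WT arrays, by a gap of 0.07 (log2 difference 0.27 ± 0.12, SE, n = 2 per group; limma adjusted p = 0.923), and the difference was 0.15 without KI cerebellum replicate 94. Foxo3 was at 7.70 and 7.68 in KI and at 7.77 and 7.88 in WT, and its KI arrays lay below. Groups without overlap made up 35.3% of all tested genes in the cerebellum, 15.3% with KI above and 20% with KI below. The other 6 tested genes overlapped between genotypes, with differences from -0.06 for Fbxo30 to 0.06 for Klf15. Trim63 was at 4.87 and 4.55 in KI and 4.55 and 4.46 in WT cerebellum, and Mstn at 4.51 and 3.71 in KI and 4.28 and 3.66 in WT, all under the 40th percentile of their arrays.

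The genotype difference in muscle was set against that in the cerebellum with an interaction contrast. None of the 10 genes passed (limma, beside 0.143% of the 14708 genes kept in either tissue). For Trim63 and Mstn the cerebellum side of this contrast was under the filter on all 4 arrays, so their values are not interpreted. Of the other 8 genes, Fbxo32 and Foxo3 had an unadjusted p under 0.05, beside 13.8% of all tested genes. For Fbxo32 the muscle difference minus the cerebellum difference was -0.70 ± 0.17 (log2, SE; adjusted p = 0.133). It was 0.37 ± 0.14 for Foxo3 (adjusted p = 0.325; limma, n = 2 per group in each). The opposite signs of Fbxo32 in the tissues are therefore not shown to differ at this threshold.

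Between tissues the genes differed in how far muscle exceeded the cerebellum. Of the 10, 5 were at least 2-fold higher in muscle than in the cerebellum with an adjusted p under 0.05 in limma. Over 14708 genes, 11% were higher and 15% lower by the same rule. The 5 include Trim63 and Mstn, which were below the filter on all 4 cerebellum arrays, so their calls only describe the values. Fbxo32, which was above the filter on all 4 cerebellum arrays, was 10.2-fold higher (log2 3.35 ± 0.08, SE, 4 arrays per tissue; limma adjusted p = 6.92e-10). Trim63 and Mstn were kept through muscle alone, so their folds are bounds: set against the mean 40th percentile of the cerebellum arrays, 5.01 on the log2 scale, Trim63 (muscle mean 8.28, measured cerebellum mean 4.61) was at least 9.65-fold higher and Mstn (8.26 and 4.04) at least 9.52-fold higher. Eif4ebp1 was 3.98-fold higher (log2 1.99 ± 0.11; adjusted p = 1.19e-07).

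Foxo1 was 2.01-fold higher in muscle (log2 1.01 ± 0.15, SE; limma adjusted p = 0.000146), just past the 2-fold limit, and fell short of that limit without KI muscle replicate 94 (0.85), WT muscle replicate 95 (0.95), WT cerebellum replicate 95 (0.94) or KI cerebellum replicate 97 (0.94). Fbxo30 (log2 0.91 ± 0.07), Sqstm1 (0.89 ± 0.09), Klf15 (0.80 ± 0.07) and Zfand5 (0.68 ± 0.09) were higher in muscle by less than 2-fold (SE; limma adjusted p from 2.48e-06 to 0.000102). Foxo3 was the only member lower in muscle, at 0.619 times its cerebellum level (log2 -0.69 ± 0.07, SE; limma adjusted p = 1.43e-05). On all 4 muscle arrays Foxo3 was under its lowest cerebellum array.

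Genes that act around the 10 were examined in 11 lists, of 197 genes in all, of which 182 were tested in muscle. Among these 182 genes, 2 rose and 6 fell in KI muscle (limma, adjusted p under 0.05), beside 2.66% of all tested genes higher and 0.89% lower. KI arrays lay wholly above WT in 63 of them and wholly below in 35, beside the 30.3% and 19.9% of all tested genes. The 8 genes that passed were spread over 6 of the lists, and no list had more than 2.

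In the list from insulin and IGF1 to Akt and mTOR, 2 of 23 tested genes fell and 0 rose, and the median was 0.12 on the log2 scale. Most differences were above 0 (15 of 23, beside 55% of all tested genes). At an unadjusted p under 0.05 (limma) 4 were higher and 2 lower, beside 13.6% and 6.69%. KI arrays lay wholly above WT in 10 and wholly below in 4, beside 30.3% and 19.9%. Irs1, the docking protein of the insulin and IGF1 receptors, was at 7.47 and 7.63 in KI and 8.78 and 8.38 in WT muscle. It fell 2.04-fold (log2 -1.03 ± 0.15, SE, n = 2 per group; limma adjusted p = 0.00914), and was not called without KI muscle replicate 94 (0.0527). Igfbp5, which binds IGF1 outside the cell, fell 1.72-fold (-0.78 ± 0.17; limma adjusted p = 0.0417). It stayed lower but lost the call without KI muscle replicate 97 (-0.50, adjusted p = 0.143), WT muscle replicate 95 (-0.88, 0.118) or WT muscle replicate 96 (-0.68, 0.142). The call was also lost without any 1 cerebellum array (limma adjusted p from 0.0690 to 0.0778), with the muscle arrays alone (0.123) and with no filter (0.0749), with the difference still -0.78. Its difference in the cerebellum was -0.93 (limma adjusted p = 0.133).

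Of the 13 glucocorticoid receptor genes and targets, 1 fell and 0 rose, and 10 were below 0, beside 45% of all tested genes (median log2 -0.16). At an unadjusted p under 0.05 (limma) 0 were higher and 4 lower, beside 13.6% and 6.69%. Sgk1, a kinase related to Akt that phosphorylates FoxO3, was at 7.61 on both KI arrays and at 8.80 and 9.03 on the WT arrays. It fell 2.47-fold (log2 -1.30 ± 0.20, SE, n = 2 per group; limma adjusted p = 0.0131), and was not called without any 1 muscle array (0.0515 to 0.0667). In the cerebellum its difference was 0.02.

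Of 17 tested FoxO family members and reported FoxO targets, 1 rose and 1 fell (median log2 0.09). At an unadjusted p under 0.05 (limma) 6 were higher and 1 lower, beside 13.6% and 6.69% of all tested genes. Of the 17 differences 11 were above 0, beside 55% of all tested genes. KI arrays lay wholly above WT in 7 and wholly below in 3, beside 30.3% and 19.9%. Sesn3, a sestrin that restrains mTORC1, was at 7.63 and 7.84 in KI and 6.86 and 6.99 in WT muscle, and rose 1.75-fold (log2 0.81 ± 0.13, SE, n = 2 per group; limma adjusted p = 0.0132). It was not called without KI muscle replicate 97 (0.0800) or WT muscle replicate 95 (0.0846). Bcl6, a transcriptional repressor, was at 7.40 and 6.98 in KI and 8.32 and 8.37 in WT, and fell 2.22-fold (-1.15 ± 0.14; limma adjusted p = 0.00576), a call it kept in all 15 alternatives. Reported targets of FoxO thus passed the adjusted threshold in both directions, 1 in each.

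**Figure D3:**
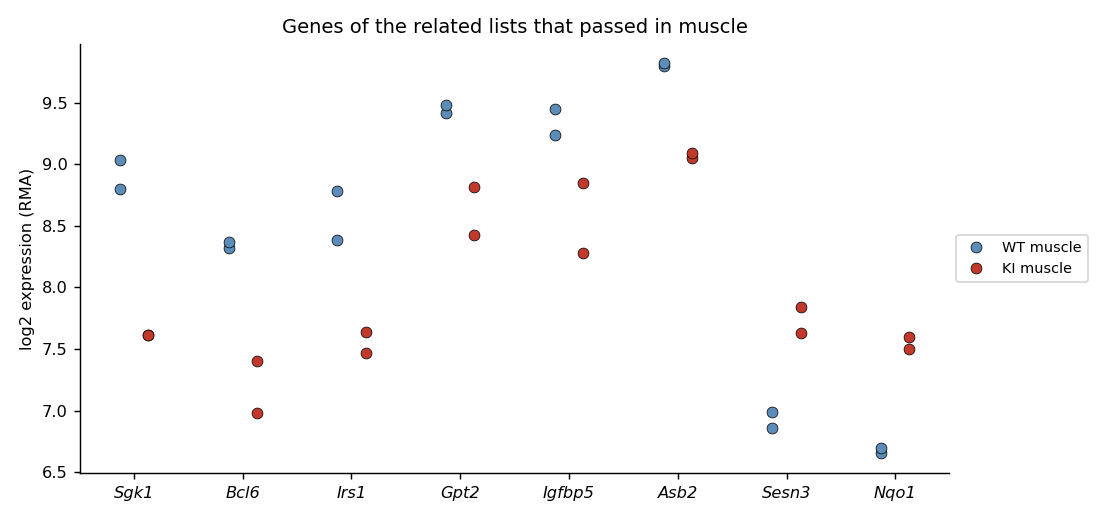
Log2 expression (RMA, vertical axis) of the 8 genes of the related lists that passed in muscle, ordered by their difference; each point is 1 array, blue for WT and red for KI muscle. KI points lie below WT points for Sgk1, Bcl6, Irs1, Gpt2, Igfbp5 and Asb2 and above them for Sesn3 and Nqo1; the KI points of Sgk1 coincide at 7.61.

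Among 15 other ubiquitin ligases of muscle 1 fell and 0 rose (median log2 -0.02). This was Asb2, the substrate receptor of a cullin ligase in muscle, at 9.05 and 9.09 in KI and 9.79 and 9.82 in WT. It fell 1.66-fold (log2 -0.73 ± 0.14, SE, n = 2 per group; limma adjusted p = 0.0261), and was not called without any 1 muscle array (0.0900 to 0.117) or without the filter (0.0513). None of 10 tested genes for ubiquitin and its enzymes passed, with 1 lower at an unadjusted p under 0.05 (limma), beside 6.69% of all tested genes. This was Ube2b, a conjugating enzyme induced in wasting rat muscle, which differed by -0.39 ± 0.11 (limma adjusted p = 0.0998, and 0.0456 with trended and robust variances). Ube2d1 differed by -0.16 ± 0.10 (0.413).

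None of the 31 subunits of the 20S and 19S proteasome passed in limma, with 2 at an unadjusted p under 0.05, both higher, beside 13.6% of all tested genes. Their differences were small, from -0.19 to 0.43 on the log2 scale with a median of 0.08, and 22 of 31 were above 0, beside 55% of all tested genes. KI arrays lay wholly above WT in 13 subunits and wholly below in 3, beside 30.3% and 19.9%. Psmd8 differed by 0.43 ± 0.15 (SE; adjusted p = 0.154), or 0.23 without KI muscle replicate 97, and Psma5 by 0.26 ± 0.10 (0.209). None of 27 autophagy and lysosome genes passed either, with 5 at an unadjusted p under 0.05, all higher (limma), beside 13.6% of all tested genes. In that list 24 of 27 differences were above 0, KI arrays lay wholly above WT in 15 and wholly below in 0, beside 30.3% and 19.9% of all tested genes, and the median was 0.16. Becn1, of the lipid kinase complex that starts autophagosomes, was at 7.87 and 7.85 in KI and 7.29 and 7.51 in WT (0.46 ± 0.12, SE; limma adjusted p = 0.0677, and 0.0401 with trended and robust variances), and the lysosomal protease Ctsl differed by 0.33 ± 0.12 (0.171).

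In the myostatin, activin and BMP list 0 of 20 tested genes passed in limma, with 3 higher and 3 lower at an unadjusted p under 0.05 and 14 of 20 below 0 (median log2 -0.14). Over all tested genes, 13.6% were higher and 6.69% lower at that p, and 45% were below 0. KI arrays lay wholly above WT in 5 genes of the list and wholly below in 9, beside 30.3% and 19.9%. Smad2, which carries the myostatin signal to the nucleus, differed by 0.43 ± 0.10 (SE; adjusted p = 0.0575), and Id1, a target of BMP signalling, by -0.40 ± 0.11 (0.0748). Smad2 passed in limma with median centring (adjusted p = 0.0498) or trended and robust variances (0.0436), and Id1 after another quantile normalisation (0.0470). Of 9 genes of branched-chain amino acid catabolism and Klf15 targets, 1 fell and 0 rose. Gpt2, an alanine aminotransferase, was at 8.82 and 8.43 in KI and 9.41 and 9.48 in WT, and fell 1.77-fold (log2 -0.82 ± 0.15, SE, n = 2 per group; limma adjusted p = 0.0219). It was not called without KI muscle replicate 97 (0.103), WT muscle replicate 95 (0.102) or WT muscle replicate 96 (0.0870), nor with the muscle arrays alone (0.0653).

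Sqstm1 is a target of the transcription factor Nrf2 and can free Nrf2 by binding its inhibitor Keap1. Of 9 tested genes of Nrf2 and its targets, 1 rose and 0 fell (median log2 0.07). Nqo1, a quinone reductase, was at 7.60 and 7.50 in KI and 6.65 and 6.70 in WT muscle. It rose 1.83-fold (log2 0.87 ± 0.11, SE, n = 2 per group; limma adjusted p = 0.00611) and was called in all 15 alternatives. In the cytokine and NF-kB list 0 of 8 tested genes passed in limma, with 1 higher at an unadjusted p under 0.05, beside 13.6% of all tested genes. Stat3 differed by 0.35 ± 0.10 (SE; adjusted p = 0.0960), and Tnfrsf12a, the TWEAK receptor, by 0.44 ± 0.20 (0.270), with overlapping groups.

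**Figure D4:**
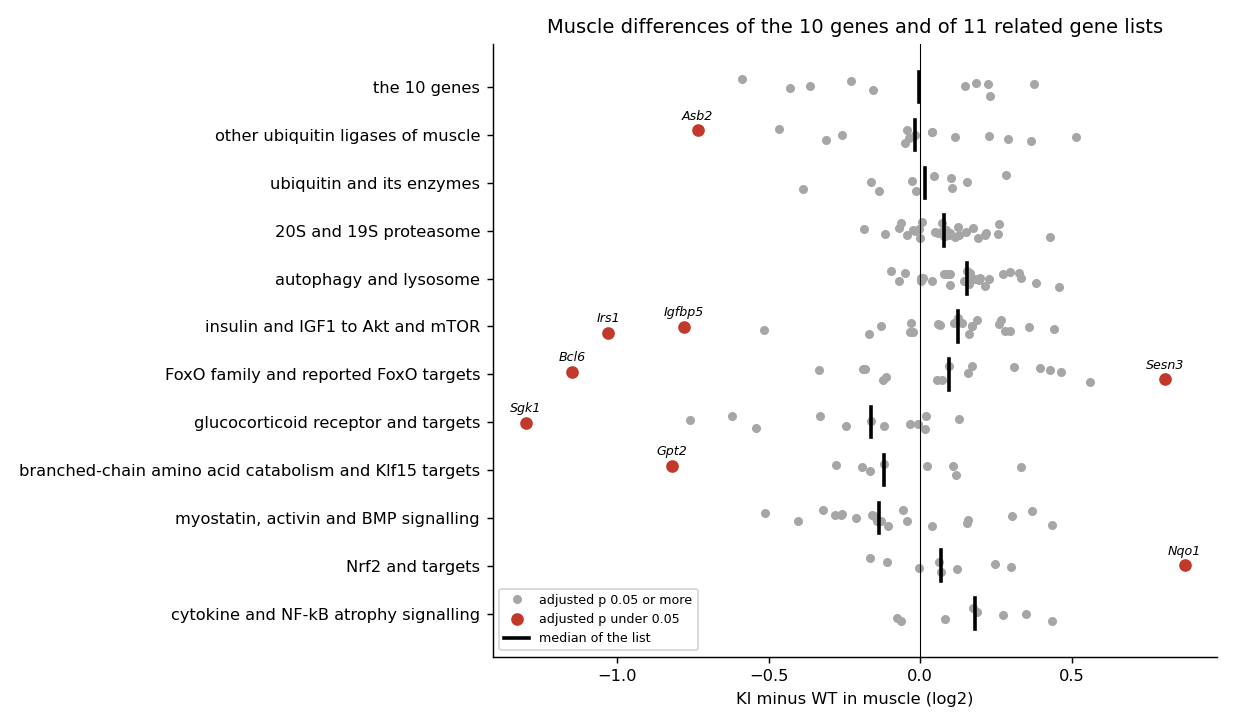
KI minus WT differences in muscle (log2, horizontal axis) of the 10 genes and of 11 related lists (rows); each point is 1 gene, large red points passed an adjusted p of 0.05 in limma, and black bars are list medians. The 10 genes spread evenly about 0, and the 8 genes that passed lie in 6 of the lists, 6 of them below 0.

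In the cerebellum 0 of 178 tested genes of these lists passed in limma, and 4 had an unadjusted p under 0.05, beside 0.205% and 5.33% of all tested genes. For the difference between tissues 0 passed and 28 had an unadjusted p under 0.05, beside 0.143% and 13.8% of all genes. The 8 muscle changes are thus not shown to differ from the cerebellum.

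Over the 8 arrays the profiles of the main ligases were closest to those of other genes high in muscle. For Fbxo32 the 3 highest Pearson correlations among 14708 genes were with Eya1 (r = 0.999), Chchd10 (0.999) and Adssl1 (0.999), and for Trim63 with Asb5 (1.00), Eya1 (0.999) and Trip10 (0.999). The points fall in 2 tissue clusters, so these values largely restate the tissue difference.

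Markers of the fibre and of other cells also differed. Over all tested genes in muscle, 55% of differences were above 0 and 45% below, and 2.66% passed higher and 0.89% lower (limma). All 10 fast-fibre markers were lower in KI muscle, 4 of them past the threshold in limma, and the log2 of their summed level was 14.63 and 14.71 in KI against 15.12 and 15.24 in WT. For 8 general skeletal muscle markers it was 14.55 and 14.60 against 14.83 and 14.94. Myh4, Mylpf and Tnnt3 are in both lists, so these sums are not separate observations. Of 9 slow-fibre markers 1 rose and 1 fell, and their sum overlapped between genotypes, from 10.70 to 11.08 in KI and from 10.22 to 10.85 in WT. The sum hides large opposite changes. Casq2 rose by log2 1.70 ± 0.16 (SE, n = 2 per group; limma adjusted p = 0.00158) and also passed for the difference between tissues (0.0342). Myl3 fell by 2.35 ± 0.30 (limma adjusted p = 0.00638), with WT arrays at 8.95 and 7.77. Of 9 tested macrophage markers all 9 were higher and 0 passed (limma). At an unadjusted p under 0.05 (limma) 5 were higher, beside 13.6% of all tested genes. The macrophage list summed to 9.92 and 9.76 in KI against 9.54 and 9.49 in WT. Of the 10 on the array, 1 stayed under the filter on all muscle arrays. Of 5 tested adipocyte markers 1 fell, and the list summed to 9.27 and 9.35 in KI against 9.59 and 9.61 in WT. Sums of endothelial (10.47 to 10.76), fibroblast (11.51 to 12.25), satellite cell (8.19 to 8.26), Schwann cell (9.60 to 10.15) and red cell markers (6.54 to 7.26) overlapped between genotypes. The part of these shifts in the values of Fbxo32, Trim63, Foxo1 and the other members was not tested.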

How the data were processed

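The table the authors deposited holds RMA log2 signals for 35556 probe sets on 8 arrays. The submitters' processing notes name GCOS and RMA, with versions, filters, genome build and the arrays normalised as 1 set not given in the sources used here. Of the probe sets, 21789 carried 1 gene symbol in the platform annotation, 1621 several and 12146 none; the brightest probe set stood for a gene. Of 286 list genes 269 were found. A linear model with 4 group means was fitted over all genes with limma 3.58.1 in R 4.3.3 (eBayes, 4 residual and 5.30 prior degrees of freedom), with Benjamini-Hochberg adjustment over all genes tested (13933 in muscle, 13641 in cerebellum, 14708 in either), and a gene was called at an adjusted p under 0.05. The procedure was also run on data simulated from its own fitted model. How often it calls differences as small as those of the members is not given here. The number of arrays limits the precision.

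The members, lists and tests were chosen with earlier results of these data known. Named genes were the 10 members, the genes of each related list that passed in muscle or, where none did, the 2 with the smallest unadjusted p, and the 3 closest profiles of Fbxo32 and Trim63. The fixed rule also named 2 genes of each marker list. Of these, Casq2 and Myl3 of the slow-fibre list are given, and the others enter counts and sums only. Sample numbers recur between tissues without a statement of what they mark, and the deviations of same-numbered arrays correlated weakly, so the main model has no pairing. Alternatives changed the samples, filter, probe set rule, scaling, variance moderation and pairing.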

Additional observations from a re-analysis of the deposited data

How the results depend on the processing

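No member was called for genotype in muscle or in the cerebellum under any of the 15 alternatives, nor for the difference between tissues under any of 14. Fbxo32 in muscle stayed negative, from -0.47 to -0.39. Its limma adjusted p was 0.0587 with trended and robust variances and 0.152 with no filter. Most alternatives could not turn this sign. Changes of the filter, probe set rule and variances left the estimate at -0.43. With both KI arrays below both WT arrays, leaving out 1 muscle array cannot reverse it. The count of members at least 2-fold higher in muscle was 5, and 4 to 6 over 14 alternatives; Fbxo30 passed 2-fold after another quantile normalisation (1.02).

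Signs near 0 turned in some alternatives. Another quantile normalisation gave 0.0064 for Eif4ebp1 in the cerebellum and -0.0083 for the Mstn difference between tissues, and median centring gave -0.010 for Zfand5 in the cerebellum. With 1 array left out, the cerebellum difference ranged from -0.089 to 0.19 for Foxo1, -0.013 to 0.13 for Klf15, -0.19 to 0.16 for Eif4ebp1, -0.11 to 0.12 for Zfand5 and -0.11 to 0.18 for Sqstm1; the Mstn difference ranged from -0.0051 to 0.37 in muscle and from -0.36 to 0.45 between tissues, where its cerebellum side was under the filter.

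The background count of 495 genes called in muscle was 108 to 174 without 1 muscle array, 155 with the muscle arrays alone and 246 with no filter, the 28 called in the cerebellum became 3 to 6 without 1 cerebellum array and 18 with no filter, and the 21 genes called for the difference between tissues became 0 to 16 without 1 array and 63 with trended and robust variances. Same-numbered arrays of the tissues deviated together with r = 0.06 (KI) and -0.10 (WT) over genes, and whether they come from 1 animal is not stated. With the number as a replicate block, 14 genes were called for the difference between tissues and 494 in muscle (random block), and Fbxo32 had an adjusted p of 0.242 for the difference between tissues.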

Other observations

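Since TBP binds the TATA box, the genes whose RefSeq promoter window holds TATAAA beginning 40 to 20 bases before the start, as those of Trim63 and Mstn do, were counted in KI muscle. Of 183 such genes that were tested, 7 rose and 2 fell in limma (3.83% and 1.09%), beside 293 and 94 of all 11023 tested genes with a window (2.66% and 0.853%). The median log2 difference was -0.02 for genes with the box and 0.03 for all, and the median absolute difference was 0.18 and 0.15. This is a description of the letters in these windows, and the difference between the shares was not tested.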
